A study of Homo sapiens with 6 samples.

Results

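The forkhead transcription factor genes were compared between wild-type (WT) H7 human embryonic stem cells (hESCs) and S6K1-/- H7 hESCs. They were taken as every symbol of the deposited count table that begins with FOX, followed by a subfamily letter from A to S, a number and, where present, a final A or B. FOXA1 and FOXA2 were left out. This gave 44 of 61155 symbols, of which 29 had enough counts to be tested and 15 did not, 3 of the latter with no read in any library. The 44 comprise 43 genes annotated as protein coding and FOXO1B, a processed pseudogene.

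The bulk RNA sequencing held 3 WT libraries and 3 S6K1-/- libraries, all of undifferentiated cells of the H7 line, an established human embryonic stem cell line kept without feeder cells. The S6K1-/- cells come from a single clone, clone #1, in which CRISPR/Cas9 had been directed against exons 9 and 11 of RPS6KB1, the gene of S6K1. No other allele or agent is named for either group, and both groups were grown in TeSR-E8 medium on Matrigel. The sample labels call the genotype a knockdown and the time week 5, whereas the methods describe undifferentiated knockout cells. A difference due to the genotype and one due to the choice of clone cannot be told apart. Neither labels nor methods say that each library had its own culture, so p-values measure only the spread between these libraries, which may be technical.

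Library totals ran from 21896698 to 24473013 counts, and the forkhead genes took between 0.108% and 0.112% of them. RPS6KB1 had from 777 to 831 counts in WT libraries and from 438 to 464 in S6K1-/- libraries, so that reads remained in the knockout, with a log2 fold change of -0.75 (SE 0.0570, edgeR adjusted p = 2.52e-07). SE is the standard error. Here and below, an edgeR adjusted p is that of the quasi-likelihood test, adjusted by Benjamini and Hochberg over all genes tested, and log2 fold changes are S6K1-/- minus WT. Markers of pluripotent cells were abundant in both groups, with 15 of 15 tested and a summed level of 6809 to 6960 CPM (counts scaled by TMM to a common library size of 1e6) in WT and 6483 to 6507 CPM in S6K1-/- hESCs. Of the 15, 1 was lower and 1 higher, 9 did not overlap between groups (30.7% over all genes), and the median log2 fold change was -0.04. Marker lists of other cell types were lower in sum but not silent, and some of their genes passed the threshold. Over all genes, 2.54% were lower and 1.42% higher past the threshold, and 14.5% were lower and 11.8% higher at an unadjusted p under 0.05, which are the shares to set beside the counts of these lists. Mesendoderm markers summed to 27.6 to 27.8 CPM in WT and 26.7 to 27.5 CPM in S6K1-/- hESCs, and 1 of 9 tested was lower, with 7 of 9 at an unadjusted p under 0.05 and a median log2 fold change of -0.64. Neuroectoderm markers summed to 72.7 to 77.6 and 66.0 to 72.6 CPM, with 2 of 7 lower and 1 higher. Of these 7, 6 had an unadjusted p under 0.05 and 3 lay below 0, with a median log2 fold change of 0.15. Neural crest markers summed to 232 to 238 and 232 to 246 CPM, and none of 6 passed by edgeR, with 3 at an unadjusted p under 0.05. Amnion and trophoblast markers summed to 27.4 to 29.2 and 26.4 to 28.6 CPM, with 1 of 5 higher. Among these lists and that of mesenchyme, SOX17, GATA6, HES5, EMX2, NEUROG2, TFAP2B, TWIST1, CGA, ISL1, HAND1, LUM and DCN were at or under 3 counts in every library. Of 12 mesenchyme markers, 7 were tested and 4 were lower in S6K1-/- hESCs (2.54% over all genes), with 6 of 7 below 0 and a median log2 fold change of -1.004. They had a summed level of 636 to 653 CPM in WT and 546 to 567 CPM in S6K1-/- hESCs, and the part of any of these cells in the values below was not tested. In bulk samples, fewer cells of a type and less RNA per cell cannot be told apart.

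Forkhead factors share a winged-helix DNA-binding domain whose recognition helix reads the major groove, and they are sorted into lettered subfamilies by that domain. Several act as switches of lineage, such as FOXC1 in mesoderm and the eye, or FOXH1, which takes Nodal signals to DNA together with SMAD2 and SMAD3. FOXO factors are the branch tied to growth factor signalling: AKT, which lies upstream of mTOR and S6K1 in the insulin pathway, phosphorylates them and sends them out of the nucleus. In pluripotent cells FOXO1, FOXD3, FOXH1 and the mitotic factor FOXM1 are the members usually discussed.

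In undifferentiated hESCs the forkhead genes spanned a wide range of levels. Divided by exonic length, the highest in WT hESCs was FOXH1 with 42.9 ± 3.07 CPM per kilobase (SD, n = 3), followed by FOXM1 with 33.8 ± 0.0453, FOXN3, a repressor tied to cell cycle checkpoints, with 23.8 ± 1.11, and FOXO1 with 12.4 ± 0.396. FOXO4 with 11.2 ± 0.261 CPM per kilobase and FOXK2 with 9.32 ± 0.220 came next. The following 3, FOXJ3 with 8.96 ± 0.540, the pluripotency and neural crest factor FOXD3 with 8.83 ± 0.570 and FOXA3, a liver and gut factor, with 8.15 ± 0.676 CPM per kilobase, did not differ beyond their spread. FOXK2 also did not differ from FOXJ3 and FOXD3 beyond their spread. FOXB1 with 5.95 ± 0.712, FOXP4 with 4.51 ± 0.0982, FOXC1 with 3.99 ± 0.0872 and FOXK1 with 2.86 ± 0.179 CPM per kilobase stood in the middle of the order. Exonic length is the union of all annotated exons, so genes with many long isoforms, such as FOXP1 and FOXP2, are placed low. Exons of other genes on the opposite strand cover 39.2% of FOXH1's exonic bases and 15.9% of FOXM1's. Whether the counting used strand is not known, so the first places are uncertain. Without division by length, the 5 highest members held 62.1% of the summed forkhead CPM, and the FOXN subfamily alone held 26.5% of it. The plot of levels by library shows 18 genes whose mean reached 10 CPM.

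**Figure D1:**
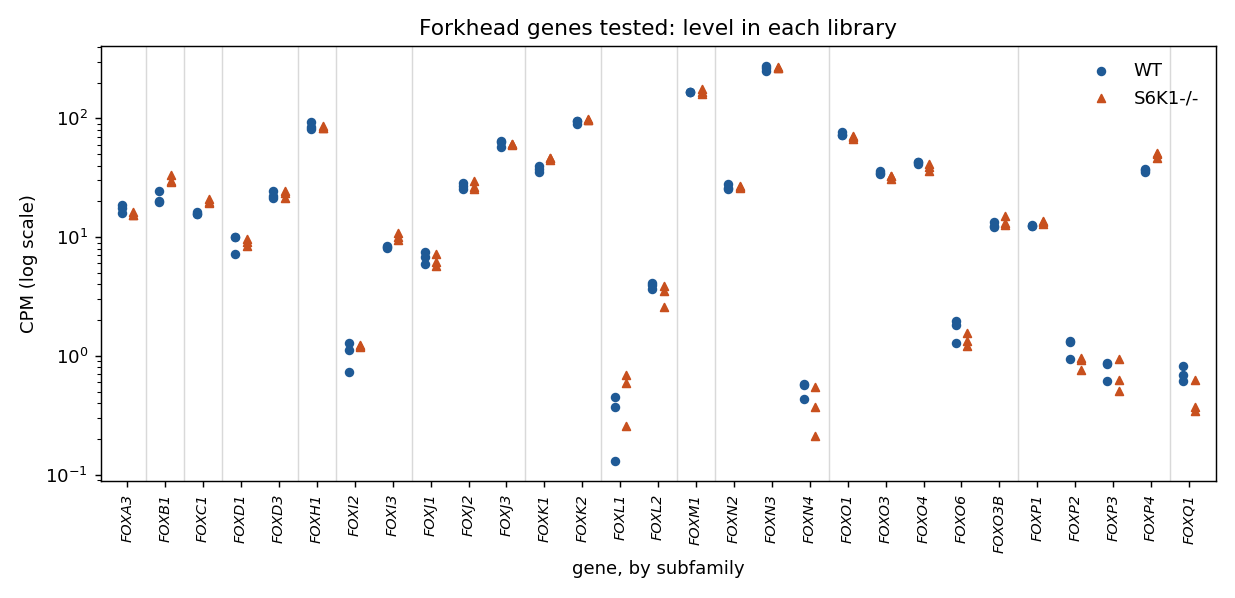
Level of the 29 forkhead genes tested, in CPM on a log axis, in each of the 3 WT (circles) and 3 S6K1-/- (triangles) libraries, with genes ordered by subfamily. FOXN3, with 265 CPM in WT and 267 CPM in S6K1-/- hESCs, is the highest, and the triangles of FOXB1, FOXC1, FOXI3, FOXK1 and FOXP4 lie above their circles.

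The summed level of all 44 genes was 1085, 1079 and 1104 CPM in WT replicates 1, 2 and 3 and 1129, 1125 and 1100 CPM in the S6K1-/- replicates. These ranges overlap, since S6K1-/- replicate 3 lay below WT replicate 3. Among subfamilies with a mean above 10 CPM over all 6 libraries, the sums of the FOXB, FOXC, FOXI, FOXK and FOXP genes were above WT in every S6K1-/- library. For FOXB, FOXC and FOXI this mostly repeats a single member each, FOXB1, FOXC1 and FOXI3. The sums of the FOXP genes were 51.0, 51.2 and 50.3 CPM in WT and 65.6, 66.5 and 60.4 CPM in S6K1-/- hESCs. FOXP4 alone went from 36.4 to 49.2 CPM, while FOXP2 and FOXP3, with few counts, had log2 fold changes of -0.43 and -0.16. The sum of the FOXO genes was below WT in every S6K1-/- library, at 164, 165 and 169 CPM against 160, 156 and 151 CPM. Of all single genes tested, 14% had every S6K1-/- library above WT and 16.7% had every one below.

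The threshold of the study was an adjusted p under 0.001. With edgeR's quasi-likelihood test, 2 of 29 were higher in S6K1-/- hESCs (6.9%), where the share over all 19521 genes tested was 1.42% (3.96% in either direction). None was lower, where the share over all genes was 2.54%, 3 members had an unadjusted p under 0.05 in that direction, and DESeq2's Wald test also called 0. At an adjusted p under 0.05, 5 of 29 were higher (17.2%, with 5.47% over all genes) and 0 were lower (8.31% over all genes). The 29 log2 fold changes had a median of -0.00124 beside -0.00237 over all genes, with 15 of 29 below 0 (50.6% over all genes). WT and S6K1-/- values were fully separated for 10 of 29 members (34.5%), and over all genes this share was 30.7%.

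**Figure D2:**
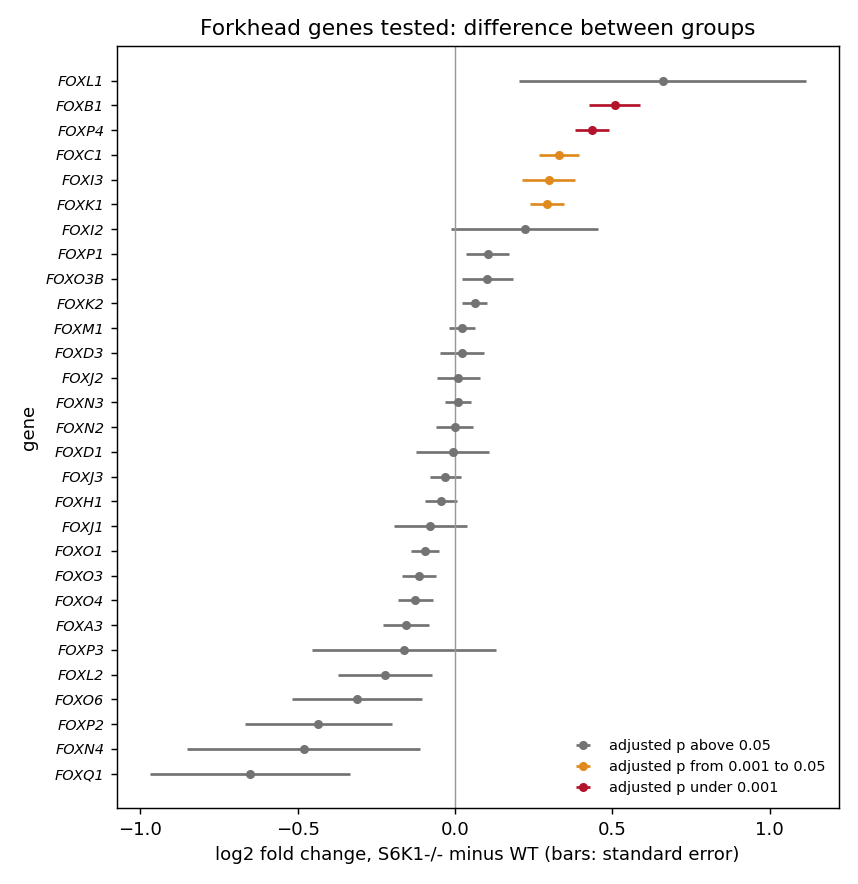
Log2 fold change of the 29 forkhead genes tested, S6K1-/- minus WT, with the standard error as a bar and the colour giving the range of the adjusted p. FOXB1 at 0.51 and FOXP4 at 0.44 are the 2 genes past 0.001, and low-count genes such as FOXL1 at 0.66 and FOXQ1 at -0.65 have wide bars.

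FOXP4, a repressor that pairs with the other FOXP factors and acts in lung, gut and brain development, rose in S6K1-/- hESCs. It had 888, 913 and 826 counts in WT replicates 1, 2 and 3, and 1178, 1230 and 1002 counts in S6K1-/- replicates 1, 2 and 3. Every S6K1-/- library was above every WT library, with replicate 3 the lowest of its group. Its level rose from 36.4 ± 0.793 CPM to 49.2 ± 2.80 CPM (SD, n = 3 per group), with a log2 fold change of 0.44 (SE 0.0529, edgeR adjusted p = 3.91e-05). The FOXP4 gene is on chromosome 6 (GRCh38, plus strand) from 41546381 to 41602384. No annotated exon of another gene overlaps its exons, and no stretch of 100 bases of its transcripts recurs in transcripts of another gene. FOXP4-AS1, an antisense transcript that starts 2.24 kb inside FOXP4 and runs away from it, had 24, 22 and 17 counts in WT and 27, 25 and 24 in S6K1-/- libraries, a log2 fold change of 0.33 (SE 0.224, edgeR adjusted p = 0.408).

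The other FOXP genes gave smaller or less certain differences. FOXP1, which helps to hold the balance of pluripotency through its splice forms, had 301, 307 and 291 counts in WT and 322, 323 and 282 in S6K1-/- libraries. After scaling, its S6K1-/- libraries were all above WT, with a log2 fold change of 0.10 (SE 0.0691, edgeR adjusted p = 0.375). The ratio of FOXP4 to FOXP1 counts, which needs no scaling, was 2.95, 2.97 and 2.84 in WT and 3.66, 3.81 and 3.55 in S6K1-/- libraries. These did not overlap, with a difference of 0.33 on the log2 scale and a two-sided p of 0.1 from an exact permutation test, the smallest that 3 against 3 libraries allow. FOXP4 was taken after its groups were seen to be apart, so the ratio adds no support for its call. FOXP2, known for its role in speech, had between 18 and 32 counts, with a log2 fold change of -0.43 (SE 0.234), and FOXP3, the factor of regulatory T cells, between 11 and 22 counts. The difference of FOXP2 has the opposite sign to that of FOXP4 but an edgeR adjusted p of 0.261.

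FOXB1, a factor of the early neural plate and later of the hypothalamus, was the other forkhead gene past the threshold. It had 493, 600 and 458 counts in WT and 678, 792 and 645 counts in S6K1-/- libraries. The groups did not overlap, and replicate 2 was the highest in both. The level rose from 21.5 ± 2.57 CPM to 30.5 ± 2.24 CPM (SD, n = 3 per group), with a log2 fold change of 0.51 (SE 0.0808, edgeR adjusted p = 0.000491). The call depended on single libraries: the edgeR adjusted p was 0.00263 without WT replicate 1, 0.00349 without WT replicate 3, 0.00433 without S6K1-/- replicate 2 and 0.00212 without S6K1-/- replicate 3. The log2 fold change then ran from 0.45 to 0.54. FOXB1 lies on the plus strand of chromosome 15 from 60004234 to 60061730, with no exonic overlap with another gene and no shared stretch of 100 bases. FOXB2, its closest relative, had from 0 to 4 counts in all 6 libraries.

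FOXK1, FOXC1 and FOXI3 had an adjusted p between 0.001 and 0.05 and are given as such. FOXK1, a repressor that works with SIN3 and acts in glucose and autophagy programmes, had 910, 867 and 928 counts in WT and 1052, 1117 and 1009 in S6K1-/- libraries. Its level was 37.5 ± 2.35 CPM in WT and 45.9 ± 0.994 CPM in S6K1-/- hESCs (SD, n = 3 per group), with a log2 fold change of 0.29 (SE 0.0540, edgeR adjusted p = 0.00170). The groups did not overlap, and DESeq2's Wald test placed FOXK1 past the threshold (adjusted p = 0.000394). FOXK2, its paralog, had from 2195 to 2293 counts in WT and from 2145 to 2301 in S6K1-/- libraries, not overlapping after scaling, a log2 fold change of 0.06 (SE 0.0393, edgeR adjusted p = 0.342). The ratio of FOXK1 to FOXK2 counts was 0.397, 0.389 and 0.423 in WT and 0.462, 0.485 and 0.470 in S6K1-/- libraries, without overlap (two-sided p = 0.1 from an exact permutation test, the smallest possible). FOXK1 too was taken after its groups were seen to be apart, so this ratio adds no support.

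FOXC1, which acts in mesoderm, neural crest and the anterior eye, had 380, 400 and 366 counts in WT and 462, 503 and 418 in S6K1-/- libraries. The levels were 15.9 ± 0.348 and 19.96 ± 0.937 CPM (SD, n = 3 per group), with a log2 fold change of 0.33 (SE 0.0649, edgeR adjusted p = 0.00274). FOXI3, a factor of ectodermal placodes, had 203, 202 and 187 counts in WT and 236, 225 and 236 in S6K1-/- libraries, a log2 fold change of 0.30 (SE 0.0852, edgeR adjusted p = 0.0298). Neither gene's groups overlapped. The call of FOXI3 was less stable, since its adjusted p was 0.116 with DESeq2's Wald test and above 0.05 in 5 of the 6 fits that left out a library, where edgeR's quasi-likelihood test gave up to 0.104. Its log2 fold change ran from 0.25 to 0.35 over the 11 alternatives.

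**Figure D3:**
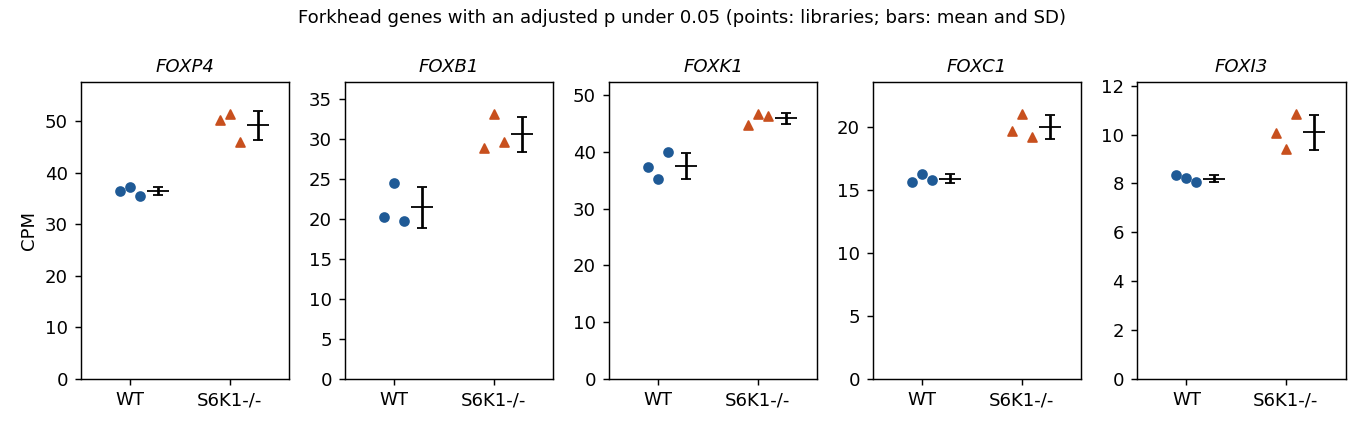
CPM of the 5 forkhead genes with an adjusted p under 0.05, with a point for each of 3 WT and 3 S6K1-/- libraries, the mean as a line and the SD as a bar. In each panel the lowest S6K1-/- library lies above the highest WT library, and for FOXB1 the highest WT library reaches 24.4 CPM against 28.9 CPM in the lowest S6K1-/- library.

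FOXC1 belongs to a chromosomal cluster of forkhead genes, which allows neighbours to be compared. On chromosome 6, FOXQ1, FOXF2 and FOXC1 lie on the plus strand between 1312098 and 1613897. FOXQ1, an epithelial factor, had 15, 20 and 16 counts in WT and 8, 15 and 8 in S6K1-/- libraries, a log2 fold change of -0.65 (SE 0.318, edgeR adjusted p = 0.209). FOXF2, a mesenchymal factor, had 14, 9 and 6 counts in WT and 7, 4 and 2 in S6K1-/- libraries and was not tested. The values of both were low and overlapped between groups after scaling, while those of FOXC1 did not overlap in the other direction. In the second cluster, on chromosome 16, FOXF1 had no read, FOXC2 had 4, 6 and 3 counts in WT and 9, 9 and 7 in S6K1-/- libraries, and FOXL1 had between 3 and 15 counts in all libraries.

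Genes around the 5 members were read to see whether whole regions moved. Of 13 other genes tested that reach within 500 kb of FOXP4, 0 were past an edgeR adjusted p of 0.001 in either direction, and their median log2 fold change was -0.01. Over all genes, 3.96% passed in either direction, so with so few genes a count of 0 does not say whether a region moved. Around FOXB1, 8 genes had a median of -0.03, and ANXA2, a membrane-binding annexin named only after its value was seen, was lower with a log2 fold change of -0.40 (SE 0.0389). Around FOXK1 the 6 genes ranged from -0.12 to 0.22 with a median of 0.09, and around FOXC1 the 3 genes ranged from -0.65 to 0.27 with a median of -0.20. Around FOXI3 the 6 genes ranged from -0.42 to 0.16 with a median of -0.05, and 0 were past 0.001 around FOXK1, FOXC1 or FOXI3. At an edgeR adjusted p under 0.05, the cut by which these 3 members are given, RADIL near FOXK1 (0.22, edgeR adjusted p = 0.0414), GMDS near FOXC1 (-0.20, edgeR adjusted p = 0.0474) and NFYA near FOXP4 (0.14, edgeR adjusted p = 0.0464) also passed, and they were named after their values were seen. Over all genes, 5.47% were higher and 8.31% lower at this cut. None of the genes around FOXP4 or FOXB1 reached the log2 fold change of the member itself.

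**Figure D4:**
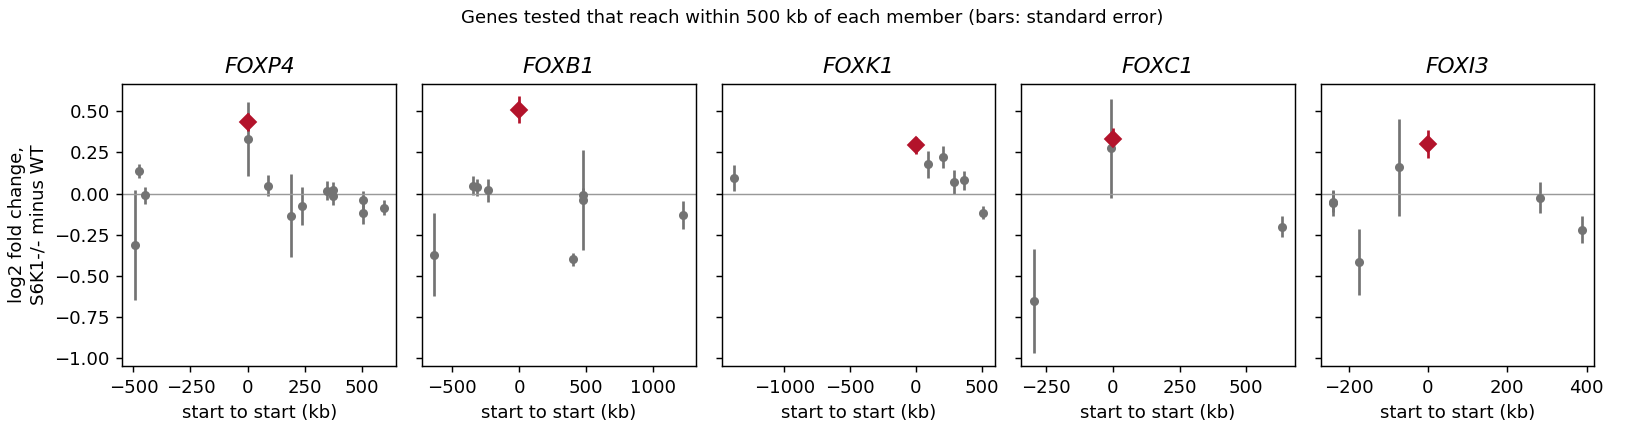
Log2 fold change, S6K1-/- minus WT, of genes tested that reach within 500 kb of FOXP4, FOXB1, FOXK1, FOXC1 or FOXI3, against the distance between gene starts in kb along the strand of the member. The member is the diamond at 0, bars are standard errors, and the diamonds of FOXP4 at 0.44 and FOXB1 at 0.51 lie above all their neighbours.

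Because FOXP4 and FOXB1 were the genes past the threshold, the sequence before their start is given, from RefSeq on GRCh38.p14. Capitals mark GC boxes, the letters GGGCGG or their reverse complement.
FOXP4, chr6:41546131-41546380, plus strand: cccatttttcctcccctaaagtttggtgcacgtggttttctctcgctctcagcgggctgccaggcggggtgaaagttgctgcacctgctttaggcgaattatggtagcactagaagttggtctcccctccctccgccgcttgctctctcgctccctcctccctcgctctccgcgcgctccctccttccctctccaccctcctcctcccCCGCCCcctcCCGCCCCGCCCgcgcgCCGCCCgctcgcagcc
FOXB1, chr15:60004061-60004233, plus strand: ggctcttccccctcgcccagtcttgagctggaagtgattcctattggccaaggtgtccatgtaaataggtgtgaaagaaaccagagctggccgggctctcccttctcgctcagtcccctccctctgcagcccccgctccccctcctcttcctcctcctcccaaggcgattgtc
The 250 bases before FOXP4 held 4 GC boxes and 21 CpG dinucleotides. The 173 bases before FOXB1, fewer because the annotated gene starts further upstream, held 0 GC boxes and 5 CpG dinucleotides. A promoter was found for 33 of the 44 genes. In the 250 bases before their start, 23 of the 33 (69.7%) held a GC box, and of 35116 promoters of the same length 42.6% did. The median GC content was 67.6% and 58%, respectively. The forkhead consensus GTAAACA, searched on both strands, was in 0 of the 33 windows and in 2.98% of all promoters, which says only that these letters are not in the windows.

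FOXO1, FOXO3 and FOXO4, the factors that growth factor signalling keeps out of the nucleus, had slightly lower values in S6K1-/- hESCs that did not pass the threshold. FOXO1 had 1764, 1788 and 1781 counts in WT and 1676, 1599 and 1513 in S6K1-/- libraries. Its level was 74.0 ± 2.36 CPM in WT and 69.2 ± 2.31 CPM in S6K1-/- hESCs (SD, n = 3 per group), with a log2 fold change of -0.10 (SE 0.0438, edgeR adjusted p = 0.181). FOXO3 had 837, 844 and 838 counts in WT and 770, 790 and 674 in S6K1-/- libraries, a log2 fold change of -0.11 (SE 0.0534, edgeR adjusted p = 0.189). FOXO4 had 1007, 1064 and 993 counts in WT and 919, 989 and 787 in S6K1-/- libraries, a log2 fold change of -0.13 (SE 0.0554, edgeR adjusted p = 0.158). After scaling, every S6K1-/- library was below every WT library for each of the 3 genes. This held for 10.3% of the 29 members and for 16.7% of all genes tested. All 11 alternatives kept the sign of each, but they reuse the same libraries. The sizes were less stable: FOXO1 was at -0.06 without WT replicate 3, and without S6K1-/- replicate 3 FOXO4 was at -0.07, while FOXO3 ran from -0.13 to -0.08 with a library left out. They are the 3 members with an unadjusted p under 0.05 in this direction (10.3% of 29), and over all genes this share was 14.5%. FOXO6, a neuronal FOXO factor, had between 29 and 48 counts.

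Among the members tested, only FOXO3 and FOXO3B shared stretches of 100 bases with each other. Other members share such stretches, on either strand, with genes outside the family, such as FOXH1 (34.4%), FOXO1 (20.7%), FOXK2 (11%) and FOXP1 (7.79%). FOXO3B, a near copy of FOXO3 on chromosome 17, had 328, 304 and 284 counts in WT and 352, 316 and 276 in S6K1-/- libraries, a log2 fold change of 0.10 (SE 0.0809). With a library left out, this ran from 0.03 to 0.16. Of the 100-base stretches in FOXO3B transcripts, 27.1% also occur in FOXO3, and 22.5% of those in FOXO3 occur in FOXO3B, so that the values of both are uncertain. Of FOXO1's exonic bases, 22.7% overlap another annotated gene on the same strand.

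FOXM1, FOXH1, FOXN3 and FOXD3 had differences smaller than their standard errors. FOXM1, which drives the mitotic programme, had 4053, 4088 and 3873 counts in WT and 4188, 4001 and 3523 in S6K1-/- libraries, a log2 fold change of 0.02 (SE 0.0422). FOXH1 had 2044, 2302 and 1907 counts in WT and 1942, 2072 and 1798 in S6K1-/- libraries, a log2 fold change of -0.04 (SE 0.0502). FOXN3 had a log2 fold change of 0.01 (SE 0.0418) and FOXD3, with 542, 596 and 497 counts in WT and 499, 581 and 511 in S6K1-/- libraries, one of 0.02 (SE 0.0699). The groups overlapped for all 4, and leaving out 1 library turned the sign of each. Whether the counting used strand is not known. If it did not, reads of a gene and of one on the opposite strand cannot be told apart. Exons on the opposite strand cover 39.2% of FOXH1's exonic bases (KIFC2), 24.1% of FOXD3's (FOXD3-AS1) and 15.9% of FOXM1's (ITFG2). FOXN2, FOXJ2 and FOXJ3 lay between -0.03 and 0.01 with standard errors from 0.0484 to 0.0678, and FOXA3 had -0.15 (SE 0.0739, edgeR adjusted p = 0.200). FOXA3 ran from -0.21 to -0.10 with a library left out.

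Members with few reads gave little information. FOXD1, a factor of kidney stroma and the ventral forebrain, FOXJ1, the factor of motile cilia, and FOXL2, of the ovary, had from 61 to 246 counts and log2 fold changes of -0.01, -0.08 and -0.22 with standard errors from 0.115 to 0.150, and FOXL2 was at -0.07 without S6K1-/- replicate 1 and at -0.35 without replicate 2. FOXI2, FOXL1 and FOXN4 had at most 30 counts in any library. FOXL2NB, a gene beside FOXL2, had 286, 283 and 243 counts in WT and 191, 235 and 158 in S6K1-/- libraries, with an edgeR adjusted p of 0.0135. MTHFSD, beside FOXF1 and FOXC2, had between 116 and 171 counts and a log2 fold change of -0.22 (SE 0.113). FOXD1-AS1, antisense to FOXD1, had between 74 and 112 counts and a log2 fold change of -0.10 (SE 0.148). The 15 members that were not tested had at most 14 counts in any library. FOXF1, of lung and gut mesenchyme, FOXN1, of thymic epithelium, and FOXR2 were at 0 in all libraries. FOXD2, FOXD4, FOXE1 of the thyroid, FOXE3 of the lens, FOXI1 of the inner ear, FOXB2, FOXO1B, FOXR1 and FOXS1 had at most 5 counts. In a fit without the filter on low counts, the smallest adjusted p among the 12 of these 15 with a read was 0.193, for FOXF2, by edgeR's quasi-likelihood test.

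Genes that work with the forkhead factors were read from lists of known partners and targets. Of 37 tested genes that set the location or stability of FOXO factors, such as PI3K and AKT kinases, YWHA scaffold proteins and exportin, 1 was higher and 0 were lower, where the shares over all genes were 1.42% and 2.54%. Of the 37, 10 had an unadjusted p under 0.05, and over all genes 14.5% did so with a lower and 11.8% with a higher value. AKT1, a kinase that phosphorylates FOXO factors, did not pass the threshold and is not the gene counted as higher. It had 132 ± 4.31 CPM in WT and 153 ± 3.79 CPM in S6K1-/- hESCs (SD, n = 3 per group), with a log2 fold change of 0.21 (edgeR adjusted p = 0.00253). The median over the list was 0.03.

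Of 37 FOXO target genes tested, 1 was higher and 1 was lower (1.42% and 2.54% over all genes), and 14 had an unadjusted p under 0.05 (14.5% lower and 11.8% higher over all genes). The median log2 fold change was -0.04, and 22 of 37 lay below 0 (50.6% over all genes). CAT, which encodes the peroxide-clearing enzyme catalase, had 47, 42 and 54 counts in WT and 240, 223 and 224 in S6K1-/- libraries. It rose by 2.32 on the log2 scale (SE 0.123, edgeR adjusted p = 4.10e-09), with all S6K1-/- libraries above WT. TXNIP, an inhibitor of thioredoxin and glucose uptake, had 307, 343 and 312 counts in WT and 195, 248 and 184 in S6K1-/- libraries and fell by 0.56 on the log2 scale (SE 0.0924, edgeR adjusted p = 0.000680). These 2 FOXO targets thus moved in opposite directions. TXNIP was past the threshold in 1 of the 6 fits that left out a library, that without S6K1-/- replicate 2, and in the others edgeR's quasi-likelihood test gave an adjusted p of 0.00150, 0.00239 and 0.00474 without WT replicates 1, 2 and 3 and of 0.00509 and 0.00703 without S6K1-/- replicates 1 and 3. IGFBP1, PCK1 and FASLG were at or under 3 counts in every library.

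FOXM1 targets, cofactors and FOXH1 partners differed in how many genes passed. None of 40 FOXM1 targets tested passed in either direction by edgeR's quasi-likelihood test or by DESeq2's Wald test, and 8 had an unadjusted p under 0.05 (14.5% lower and 11.8% higher over all genes). BUB1, a spindle checkpoint kinase, and NEK2, a centrosome kinase, had the smallest p, with log2 fold changes of -0.19 (SE 0.0414, edgeR adjusted p = 0.00620) and 0.23 (SE 0.0608, edgeR adjusted p = 0.0192). None of 27 corepressors and complex partners of FOXK, FOXP and FOXM1 passed by either tool, and 5 had an unadjusted p under 0.05, against the same shares over all genes. Of the 27, 3 lay below 0 (50.6% over all genes), with a median of 0.09. RBBP4 and SUDS3, both of histone deacetylase complexes, had the smallest p, with log2 fold changes of 0.14 and 0.12.

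Of 21 FOXH1 partners and Nodal pathway genes tested, 3 were lower and 2 were higher (2.54% and 1.42% over all genes), 15 had an unadjusted p under 0.05, and the groups did not overlap for 16 of 21 (30.7% over all genes). LEFTY2, a Nodal antagonist, had 388, 410 and 368 counts in WT and 196, 198 and 201 in S6K1-/- libraries, and CER1, another, had 69, 49 and 57 and 9, 10 and 15. CCN2, a matricellular protein, was the third lower gene, while the inhibitory SMAD7 and the ligand GDF3 were higher with log2 fold changes of 0.31 and 0.34. The calls of SMAD7 and GDF3 depended on single libraries: SMAD7 was not past the threshold without WT replicate 1 or S6K1-/- replicates 2 or 3, and GDF3 without WT replicates 1 or 3 or S6K1-/- replicates 1 or 2, with an edgeR adjusted p of up to 0.00134 and 0.00343. SKIL and SMAD3 had log2 fold changes of 0.22 and 0.20 with an edgeR adjusted p of 0.00211 and 0.00322. FOXH1 itself, as given above, differed by less than its standard error. The plot of 4 of the lists shows most genes near 0.

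**Figure D5:**
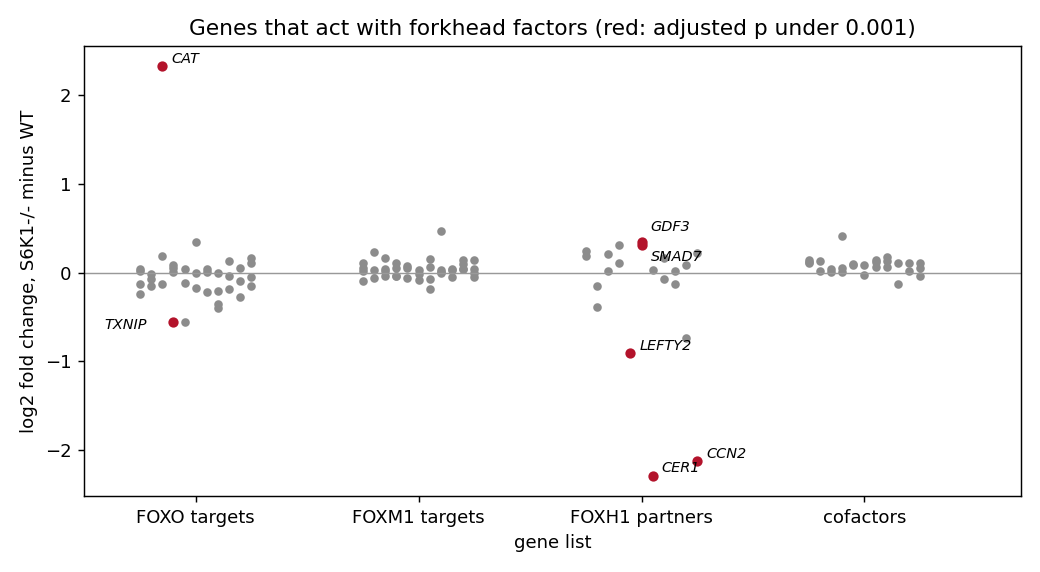
Log2 fold change, S6K1-/- minus WT, of genes tested in the 4 lists of FOXO targets, FOXM1 targets, FOXH1 partners and cofactors, with genes past an adjusted p of 0.001 in red and named and sideways position without meaning. CAT at 2.32 lies highest and CER1 at -2.29 and CCN2 at -2.13 lowest, while no FOXM1 target and no cofactor is red.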

How the data were processed

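Bulk RNA sequencing of 3 WT and 3 S6K1-/- libraries was used. According to the methods, the authors trimmed reads with Trim Galore 0.6.5, aligned them to GRCh38 with Bowtie2 2.4.5, which does not align across splice junctions, and counted them per gene with featureCounts. The deposited values are raw counts per symbol without normalization. The library kit keeps strand, but the annotation release and strand setting are not given in the sources used here. A deposited table of the authors' own comparison with DESeq2 (mean, fold change, p-values) was not used.

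Genes were kept with filterByExpr (19521 of 61155) and tested with edgeR 4.0.16 in R 4.3.3: TMM normalization, quasi-likelihood F test, genotype as the only factor, Benjamini-Hochberg adjustment over all genes tested and the threshold of 0.001 from the methods. CPM were computed with the TMM-scaled totals of the genes kept. Standard errors come from the log2 fold change and the F statistic. On simulated counts of 19267 genes, these steps called 78 of 100 genes changed by 1 and 43 of 100 changed by 0.5 on the log2 scale, and 6 unchanged genes. Alternatives were the size factors and the Wald test of DESeq2 1.42.0, other filters and thresholds, the replicate number as a block and each library left out.

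Positions, exonic lengths, overlaps and shared stretches come from GENCODE 44 on GRCh38, and promoters from RefSeq. The members and lists were chosen with earlier results of these data known. The windows around members, the GC box and the count ratios were added after values were seen. By the rule for naming, members past 0.001 or 0.05 and those with at least 10 CPM are given by value, and up to 6 genes past 0.001 of each list, or 2 where none passed. SKIL, SMAD3 and AKT1 were named after their values were seen. Some genes that the rule names are not reported here. Neighbouring genes that bear a forkhead name were also read as a list, and 0 of the 8 tested passed the threshold (1 with an unadjusted p under 0.05, 0 by DESeq2's Wald test).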

Additional observations from a re-analysis of the deposited data

How the results depend on the processing

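FOXP4 was past the threshold in all 11 other fits, with a log2 fold change from 0.40 to 0.49. FOXB1 was past it in 7 of 11, and FOXK1 in 2 and FOXC1 in 1 of 11. The number of higher forkhead genes, 2, became 4 without the filter on low counts, 5 at an adjusted p under 0.05 and 4 at 0.01, and it ran from 1 to 2 with a library left out. Over all genes, 496 lower and 278 higher genes became 982 and 591 without the filter, 1622 and 1067 at 0.05 and 939 and 534 at 0.01, and with a library left out they ran from 313 to 445 and from 175 to 235, lowest without S6K1-/- replicate 3 for lower and replicate 1 for higher genes.

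For higher FOXO modifiers, the count of 1 became 2 with DESeq2's Wald test, without the filter, at 0.05 and at 0.01, and 1 was lower at 0.05. For FOXO targets, 1 lower and 1 higher became 2 and 2 without the filter and at 0.01, and 3 and 3 at 0.05, and the lower count ran from 0 to 1 with a library left out. FOXM1 targets had 1 lower gene without the filter and at 0.01, and 1 lower and 2 higher at 0.05. For FOXH1 partners, 2 higher genes became 4 with DESeq2's Wald test and without the filter, 5 at 0.01 and 7 at 0.05, with 5 lower at 0.05, and ran from 0 to 3 with a library left out. Of the cofactors 1 was higher at 0.05, and of the neighbours 1 was lower without the filter and at 0.05.

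FOXN2 turned from -0.00124 to 0.00531 and 0.00529 with DESeq2's size factors and Wald test. With a library left out, the sign turned for FOXD1 (-0.139 to 0.0787), FOXD3 (-0.0178 to 0.0776), FOXH1 (-0.074 to 0.0169), FOXJ1 (-0.165 to 0.00965), FOXJ2 (-0.0505 to 0.0635), FOXJ3 (-0.0794 to 0.00582), FOXM1 (-0.0164 to 0.0606), FOXN2 (-0.0288 to 0.0457), FOXN3 (-0.0215 to 0.0515) and FOXP3 (-0.445 to 0.015) (log2 fold changes). None of these genes was called in any fit, and the cause was not tested. Groups of 3 libraries and low counts limit what could be detected for the members under 10 CPM. FOXL1 and FOXQ1 kept their sign with a library left out but ran from 0.31 to 0.99 and from -0.99 to -0.49.

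Neither labels nor methods say whether libraries of the same replicate number are paired. The deviations of same-numbered libraries from their group means correlated by 0.172, 0.0959 and 0.0675. Of 3 WT libraries, 1 matched best the S6K1-/- library of its number. With 3 libraries per group, this cannot decide whether they are paired. With the replicate block, 2 forkhead genes were higher and 0 lower, and over all genes 423 were lower and 241 higher.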
